A study of Mus musculus with 24 samples.

Results

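Staufen2 (STAU2) is a protein that binds double-stranded stretches of RNA and is known in neural cells for its part in placing and regulating messenger RNAs, which it often contacts in their 3′ untranslated regions. A 3′ untranslated region ends where the transcript is cleaved and polyadenylated, usually a short way past an AATAAA or ATTAAA hexamer, and one gene can use several such ends. An annotation that records a shorter end leaves the rest of the transcript outside the gene. Processed pseudogenes are copies of messenger RNAs that were reverse transcribed back into the genome, so they resemble the exons of a parent gene and carry no introns.

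The intergenic peaks described here are the listed peaks whose midpoint lies in no GENCODE vM21 gene body on either strand. They number 1167 of 29007 listed peaks, or 4.02%. The peaks come from RNA immunoprecipitation of cortical tissue pooled over a litter of mouse embryos at embryonic days from E11.5 through E13.5 and E15.5 to E17.5. Each day has STAU2 immunoprecipitates and input RNA, with 3 libraries of each kind, and the labels name no genotype or drug. The authors deposited 8 lists, a plus-strand and a minus-strand list per day, so the libraries of a day stand behind shared lists and no replicate has values of its own. No comparison between days could therefore be tested, and the depth of the libraries is unknown. The lists do not state whether a peak was higher in the immunoprecipitate than in the input. The score, signal and p-value of a peak are the authors' own and were used only to describe and rank peaks within a day, with rank 1 for the smallest p over both strands. Among peaks over genes of a single strand, 94.1% to 97.3% in the plus lists lay over plus-strand genes, against 3.73% to 4.98% in the minus lists.

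The sequences printed first are the last 30 annotated bases of genes that had intergenic peaks closely downstream on their own strand, because the question is whether such peaks continue a transcript past its recorded end. Bases are GENCODE vM21 transcript ends on GRCm38, 5′ to 3′ on the gene's strand, and capitals mark an AATAAA or ATTAAA hexamer in protein-coding genes. These 5 protein-coding genes are shown for their several peaks or for a peak of small p.
Cmip, chr8:117459401-117459430, plus strand: gatgggctcgcacaaaacaaaacaaaaaag
Strn3, chr12:51609632-51609661, minus strand: taaagttattttgctttaaaaaaaaaaaaa
Ndufa9, chr6:126821721-126821750, minus strand: atttggtataaatgagcacatagacaccta
Nutf2, chr8:105879301-105879330, plus strand: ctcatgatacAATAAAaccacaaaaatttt
Ywhaz, chr15:36770770-36770799, minus strand: gtaaatgctcAATAAAtattgatgatggga
The recorded ends of Nutf2 and Ywhaz held a hexamer. Those of Cmip and Strn3 held none and were rich in adenine.

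The processed pseudogenes are shown the same way, with capitals on a stop triplet (TAA, TAG or TGA) where it forms the last 3 bases.
Gm11189, chr11:53201029-53201058, plus strand: gcttttgacgaagccaactatggatctTGA
Gm10182, chr9:22321105-22321134, minus strand: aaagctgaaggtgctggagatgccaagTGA
Gm11966, chr11:5818497-5818526, minus strand: tttgaagtcatcgacaaaccccagtccTGA
Gm7931, chr5:46414585-46414614, plus strand: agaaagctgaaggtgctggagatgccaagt
Rab11b-ps2, chr19:7398424-7398453, minus strand: cccaacaagctgcagtgctgccagagcctg
Gm11189, Gm10182 and Gm11966 stop at the triplet. Those of Gm7931 and Rab11b-ps2 do not.

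Intergenic peaks were a small share of every day's lists. They were 199 of 6530 peaks on E11.5 (3.05%, exact Clopper-Pearson 95% interval 2.64% to 3.49%), 277 of 5871 on E13.5 (4.72%, 4.19% to 5.29%), 423 of 10265 on E15.5 (4.12%, 3.74% to 4.52%) and 268 of 6341 on E17.5 (4.23%, 3.74% to 4.75%). These intervals and those given later cover the counting of peaks only, since peaks are not replicates of a day. Of all bases between the first and last gene of the chromosomes, 54.1% lie outside genes. The E11.5 interval lay below the other intervals. E11.5 stayed lowest by less under other settings. With peaks within 1 kb merged it had 4.60% against 4.70% on E17.5. With only protein-coding and long noncoding gene bodies it had 6.13% against 6.34% on E15.5. The higher share on E13.5 came in part from clusters: without the 3 gaps between genes that held the most intergenic peaks it was 3.52%.

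Of the 1167 intergenic peaks, 85 shared at least 1 base with a gene although their midpoint lay outside. Requiring no shared base left 180 peaks on E11.5, 263 on E13.5, 390 on E15.5 and 249 on E17.5. The median width was 62 bases, with quartiles of 50 and 99 bases. There were 16 peaks wider than 5000 bases, and the widest spanned 201350 bases on E15.5 on chromosome 4.

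Most intergenic peaks lay within 10 kb downstream of a gene on their own strand. A same-strand 3′ gene end lay within 10 kb behind 680 of the 1167 peaks (58.3%). Turning the strand label of the same positions round left 233 (19.97%), and 10.7% of bases outside genes lie that close to such an end. Within 1 kb the counts were 460 peaks (39.4%) on the own strand and 47 (4.03%) on the mirrored strand, beside 1.28% of bases. The same-strand share within 10 kb was 57.3% on E11.5, 45.8% on E13.5, 62.4% on E15.5 and 65.3% on E17.5, each above the mirrored shares of 21.1%, 14.4%, 21.3% and 22.8% in the same order of days. The E13.5 share was 59.3% without the 3 fullest gaps.

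**Figure D1:**
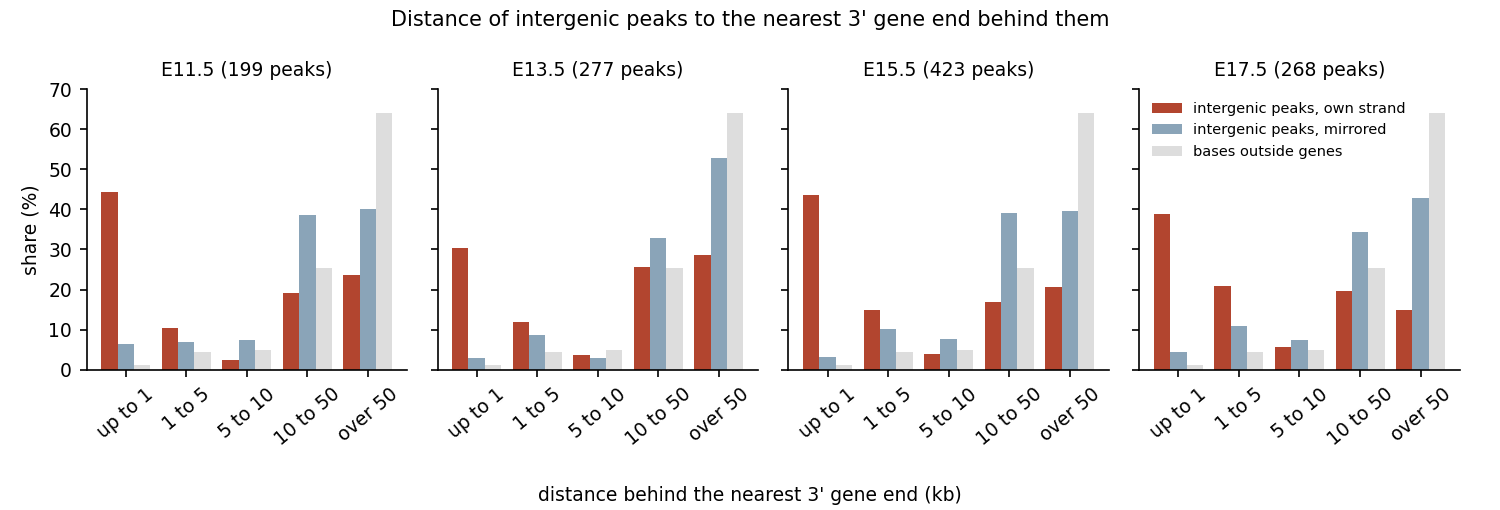
Share of intergenic peaks in each distance class (x axis, kb behind the nearest 3′ gene end, classes of unequal width) for their own strand, for the mirrored strand and for all bases outside genes, by day. In the class up to 1 kb the own-strand bars stand at 44.2%, 30.3%, 43.5% and 38.8% from E11.5 to E17.5, and the bar for bases at 1.28%.

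Each gene end was then counted once, so that several peaks behind a gene did not weigh more. Ends in copies of the same sequence still counted separately, and the test treats all ends as independent. Gm7931 and Gm10182, whose printed ends share most bases, each had a 64-base peak at 629 bp on E11.5. Ends reached on the own strand alone outnumbered ends reached on the mirrored strand alone on every day, with 104 against 39 on E11.5, 115 against 36 on E13.5, 227 against 73 on E15.5 and 132 against 53 on E17.5. The two-sided exact binomial test gave Benjamini-Hochberg adjusted p-values over the 4 days of 5.18e-08 on E11.5, 1.60e-10 on E13.5, 6.10e-19 on E15.5 and 7.71e-09 on E17.5. No other orientation was as frequent. A same-strand gene start lay within 10 kb ahead of 226 peaks (19.4%), and an opposite-strand gene start lay within 10 kb behind 205 (17.6%).

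The genes behind these peaks were more often processed pseudogenes than protein-coding genes. Of the 680 peaks, 411 followed a processed pseudogene, 198 a protein-coding gene, 25 a long noncoding gene, 23 another kind of pseudogene and 23 another kind of gene. On the mirrored strand the processed pseudogenes accounted for 51 peaks and the protein-coding genes for 130. In all, 436 genes had an intergenic peak within 10 kb downstream, of which 267 were processed pseudogenes and 126 were protein-coding. Only 30 of the 436 had such peaks on 3 or more days, and 4 had them on all 4 days, namely Cmip, Gm7931, Rab11b-ps2 and Gm9761.

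Ends of protein-coding genes passed the test of strand within 1 kb on 3 days and within 10 kb on none. Within 10 kb the ends reached on the own strand alone and on the mirrored strand alone numbered 29 against 21 on E11.5, 36 against 17 on E13.5, 59 against 47 on E15.5 and 38 against 31 on E17.5, and no day passed the exact binomial test (adjusted p = 0.430, 0.0506, 0.430 and 0.470). Within 1 kb, a window paired with this gene class after the data had been seen, the counts were 16 against 2, 15 against 2, 23 against 6 and 15 against 6. The first 3 of these days passed the exact test, each with adjusted p = 0.00313, and E17.5 did not (adjusted p = 0.0784). Counted by peak, 78 intergenic peaks lay within 1 kb of a protein-coding end on the own strand, 19 on the mirrored strand. From 1 to 5 kb there were 90 on the own strand and 64 on the mirrored strand, and from 5 to 10 kb 30 and 47. These own-strand counts by peak include 13 on E17.5 behind the single gene Gm1043. With every kind of pseudogene left out and all other upstream genes kept, no day passed the exact test within 10 kb either, with 36 ends against 26 on E11.5, 43 against 23 on E13.5, 75 against 59 on E15.5 and 47 against 36 on E17.5 (adjusted p = 0.272, 0.0746, 0.272 and 0.272). For processed pseudogenes within 10 kb the counts of ends were 65 against 9, 69 against 10, 148 against 8 and 82 against 15, with adjusted p-values of the exact binomial test of 1.35e-11, 7.39e-12, 6.71e-34 and 4.75e-12. Pseudogenes of the same parent count here as separate ends, so these p-values treat related copies as independent.

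**Figure D2:**
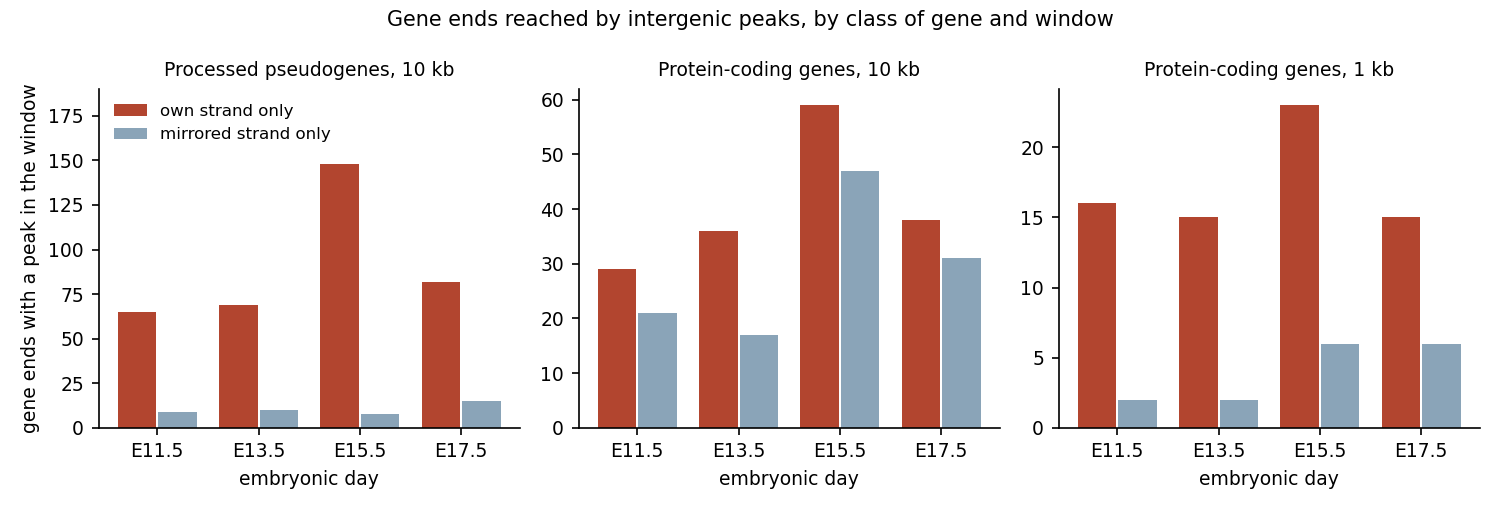
Number of distinct gene ends (y axis, own scale in each panel) with an intergenic peak behind them on the own strand only and on the mirrored strand only, by embryonic day. On E15.5 the bars stand at 148 and 8 for processed pseudogenes within 10 kb, at 59 and 47 for protein-coding genes within 10 kb and at 23 and 6 for protein-coding genes within 1 kb.

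Many of these positions are inside genes in RefSeq. Of the 1167 midpoints, 662 (56.7%) lay in a gene body of RefSeq on the same build, counted on either strand. Positions antisense to a RefSeq gene are thus included, and the share of bases outside GENCODE genes that RefSeq covers is not given here. Of the 198 peaks within 10 kb behind a protein-coding GENCODE end, 116 (58.6%) lay in the RefSeq model of that same gene, and of the 411 behind processed pseudogenes 261 (63.5%) did. Taking both annotations together left 1.27% of listed peaks outside genes on E11.5, 2.10% on E13.5, 1.77% on E15.5 and 1.85% on E17.5. RefSeq models also reached peaks beyond 10 kb. Rnf130, a RING-domain E3 ubiquitin ligase, had 9 such peaks between 17176 and 20472 bp past its GENCODE end, on E13.5, on E15.5 and on E17.5. Their best rank was 904, and their signal ran from 5.18 to 72.3. Khdrbs2, an RNA-binding protein of the STAR family, had 5 on E17.5 between 28479 and 46479 bp past its end.

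Protein-coding genes with peaks on several days had them in a short stretch past the end. Cmip, which encodes an adaptor protein of cell signalling, had 8 intergenic peaks between 565 and 1979 bp past its end, all in the RefSeq Cmip model. Their signal was 12.2 and 14.8 on E11.5, 16.3 on E13.5, 20.8 and 23.2 on E15.5, and 27.6, 60.6 and 177 on E17.5. The values were lowest on E11.5 and highest on E17.5, but the scale of the signal between days is not stated, so no change is read from this order. The best of the 8 ranked 1207 of 6530.

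Nutf2, which carries the GTPase Ran into the nucleus, had a peak at 328 bp on E11.5, at 761 bp on E13.5 and at 742 bp on E15.5. All 3 lay in the RefSeq Nutf2 model. Ndufa9, a subunit of mitochondrial complex I, had peaks at 468 bp on E13.5, 2572 bp on E15.5 and 686 bp on E17.5, in no RefSeq gene. The E15.5 peak of Ndufa9 ranked 226 of 10265.

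Rimbp3 also had peaks on 3 days, with far higher values. Its peaks at chr16:17222337-17222515 lay 8407 to 8444 bp past its end with signal of 29984 on E13.5, 13273 on E15.5 and 22493 on E17.5, against a median of 28.0 over all intergenic peaks. They overlapped each other, and no RefSeq gene covered them.

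Other protein-coding genes had peaks on 1 or 2 days, of which at least 1 per gene was well ranked. Ywhaz, a 14-3-3 adaptor protein, had a peak on E15.5 at chr15:36770408-36770473, 330 bp past its end, with signal 60.2 and rank 127. Cep68, a protein of the centrosome, had peaks 157 bp past its end on E11.5 and 8 bp past it on E15.5, with ranks 827 and 117. On the mirrored strand the Rab1a end was 24 bp from the E11.5 peak, nearer than the Cep68 end, and 173 bp from the E15.5 peak. Lzic had a peak on E11.5 with signal 18.9 and rank 120, 2067 bp past its end. Pabpn1, the nuclear poly(A)-binding protein, had peaks 197 bp past its end on E11.5 and 497 bp past it on E15.5. Their ranks were 473 of 6530 and 9764 of 10265, the second among the weakest of its day. A peak 51 bp past the end of Gatc on E11.5, with rank 381, lay in the RefSeq model of Srsf9 and not of Gatc, and the Srsf9 end was 108 bp away on the mirrored strand. Cacng8, an auxiliary subunit of AMPA receptors, had a peak 2741 bp past its end on E15.5, with rank 444 of 10265. On E17.5 it had peaks 1171 and 2534 bp past its end, with ranks 1702 and 5713 of 6341.

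In the cortical and RNA-binding lists, only RNA-binding proteins had an intergenic peak behind them. Of 45 such proteins 2 did (4.44%). Rbfox1, a splicing regulator of neurons, had a peak 147 bp past its end on E15.5 with signal 22.6 and rank 3798, in the RefSeq Rbfox1 model. Nova2, another neuronal splicing regulator, had a peak 6760 bp past its end on E17.5 with signal 10.8 and rank 2310. None did among 17 radial glial, 11 intermediate progenitor, 10 deep-layer, 9 upper-layer, 24 pan-neuronal, 14 interneuron, 18 vessel and meninges, 10 microglial and 9 red blood cell markers, nor among 16 reported STAU2 cargoes. Of all 22028 protein-coding genes, 126 (0.572%) did, so lists of 9 to 24 genes are too short to show a lack. The RNA-binding share rests on 2 genes, and no list was tested.

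The recorded ends of protein-coding genes with a peak behind them held a polyadenylation hexamer in fewer cases than those of all protein-coding genes, and an adenine-rich stretch in more. An AATAAA or ATTAAA hexamer in the last 50 bases was present in 63 of 126 protein-coding genes with an intergenic peak within 10 kb on the own strand (50%, exact interval 41.0% to 59.0%). It was present in 68.1% of 91 genes reached on the mirrored strand and in 71.9% of all 21951 protein-coding genes with a transcript sequence. At least 8 adenines in the last 10 bases were found in 15 of the 126 genes (11.9%, 6.82% to 18.9%), in 11 of 58 with a peak within 1 kb (18.97%, 9.87% to 31.4%), in 2 of the 91 mirrored genes (2.198%) and in 2.64% of all protein-coding genes. This measure of adenine was chosen after the ends had been seen. Among processed pseudogenes the last 3 bases were a stop triplet in 120 of 267 with a peak (44.9%, 38.9% to 51.1%), in 27.5% of 40 reached on the mirrored strand and in 32.3% of 10236 in all. These are counts of letters in the forward strand of the transcript, with no test, and the missing hexamer says only that the letters are not in this window.

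**Figure D3:**
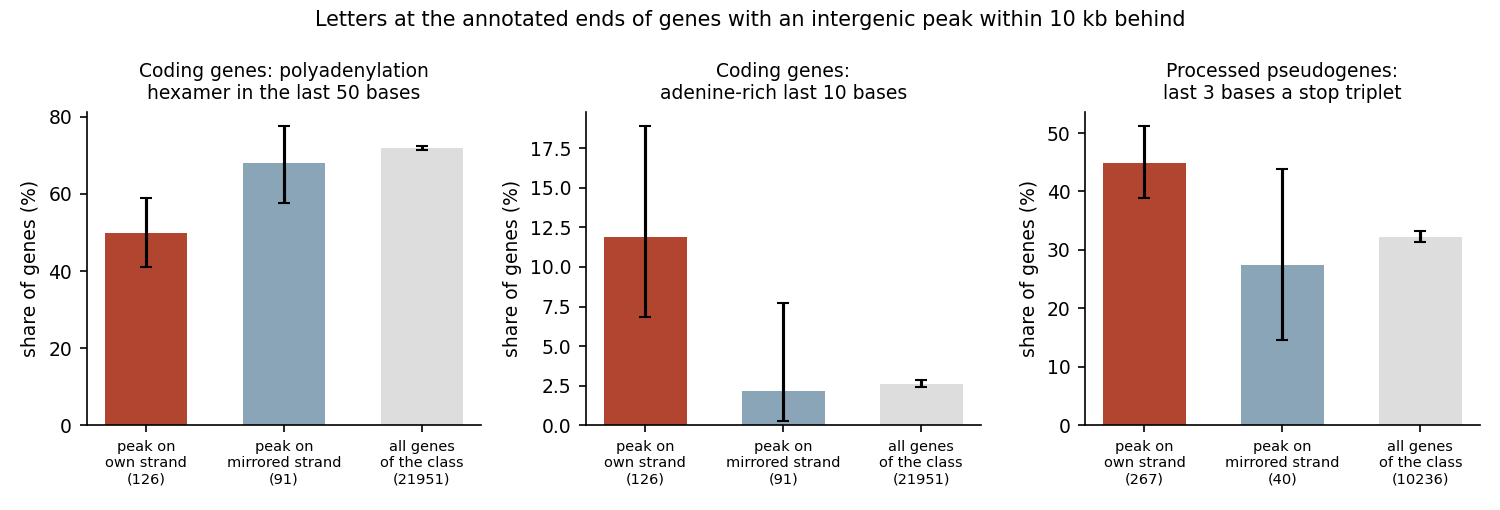
Share of genes (y axis, percent, with exact 95% intervals) whose recorded end holds a polyadenylation hexamer, an adenine-rich last stretch or a closing stop triplet, for genes with an intergenic peak within 10 kb on the own strand, genes reached on the mirrored strand and all genes of the class (number in brackets). The first bars stand at 50%, 11.9% and 44.9%, and the last at 71.9%, 2.64% and 32.3%.

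Genes with an intergenic peak behind them more often had a listed peak inside as well. Among protein-coding genes with such a peak within 10 kb, 41.4% on E11.5, 27.8% on E13.5, 41.0% on E15.5 and 36.8% on E17.5 had a same-strand peak of the same day in the gene body, against 10.4%, 12.5%, 20.7% and 14.3% of all protein-coding genes. The mirrored genes had one in 19.05%, 41.2%, 20.4% and 16.1% of cases, so on E13.5 the mirrored share was the higher. For processed pseudogenes the shares were 20.9%, 10.1%, 21.5% and 10.98%, against 2.32%, 1.40%, 2.45% and 1.51% of all processed pseudogenes. Those reached on the mirrored strand, 11, 10, 9 and 15 genes, had one in 0%, 0%, 11.1% and 13.3% of cases, so on E17.5 the mirrored share was again the higher.

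Processed pseudogenes made up most of the genes with peaks on several days, 23 of the 30 with peaks on 3 or more days. Rab11b-ps2 is named for Rab11b, a GTPase of recycling endosomes, and had 7 intergenic peaks between 322 and 688 bp past its end, on all 4 days. Their signal was 31.3 and 61.5 on E11.5, 51.2 on E13.5, 73.7 and 129 on E15.5, and 84.1 and 122 on E17.5. Gm9761 had peaks 175 to 204 bp past its end on all 4 days, with signal of 242, 335, 730 and 302 from E11.5 to E17.5. Gm7931 had signal of 924 on E11.5, 382 on E13.5, 2595 and 307 on E15.5, and 226 on E17.5, from 18 to 666 bp past its end. Width, signal and p equalled those of another peak of the day for Gm9761 on E11.5, E13.5 and E17.5. The same held for Gm7931 on E11.5 and E17.5.

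Gm10182 had peaks on 3 days and none on E17.5, with signal from 201 to 1071. Fkbp1a-ps1, named for the immunophilin FKBP12, had peaks 31 to 49 bp past its end with signal of 138 on E11.5, 203 on E13.5 and 156 on E15.5. Atp6v0c-ps2, named for a subunit of the vacuolar proton pump, had peaks 86 to 180 bp past its end on E11.5, on E15.5 and on E17.5, with signal of 52.5, 114 and 99.7. All of these lay in the RefSeq models of the same pseudogenes.

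Processed pseudogenes share sequence with their parents, and how reads with several positions were placed is not given in the sources used here. For 28 of the 267 pseudogenes the name gives a parent gene in the annotation. The parent had a same-strand listed peak on the day of the pseudogene's intergenic peak in 35 of 42 pseudogene-days (83.3%), beside 10.4%, 12.5%, 20.7% and 14.3% of all protein-coding genes with a peak from E11.5 to E17.5. In all, 22 of the 28 pseudogenes had at least 1 such day. A parent with several pseudogenes counts once for each of them, and the genes set beside the parents were not matched for expression. Cbx3, which encodes a heterochromatin protein, had 4 such pseudogenes (Cbx3-ps1, Cbx3-ps4, Cbx3-ps5 and Cbx3-ps8), and Cbx3 itself had a peak on each of their days. Rab11b had a peak on E11.5, on E13.5 and on E15.5 and none on E17.5. Parents without a peak on the day were Tma7, Gstm2, Got2, Npm3, Hmgb1 and Hspd1. Whether reads of the parents stand behind the intergenic peaks was not tested.

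The best-ranked intergenic peaks included several more pseudogene ends and a position far from any gene. On E11.5 the first was at chr5:91737652-91737739, 10 bp past Trmt112-ps1, with signal 174 and rank 32. On E13.5 rank 1 of 5871 belonged to the peak at chr18:54699144-54699376 on the minus strand, 69124 bp past the noncoding gene AC129179.2, with signal 35686. An overlapping peak on E15.5 had signal 26610 and rank 5197. Also on E13.5 a peak 611 bp past Gm18541 had signal 321 and rank 3, and a peak 465 bp past Gm14269 had signal 230 and rank 33. On E15.5 a peak 446 bp past Gm8325 ranked 22 with signal 36.8. On E17.5 a peak past Gm14497 ranked 65 with signal 93.0, and a peak 65 bp past Gm11966, whose end is printed above with its stop triplet, ranked 269.

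A few well-ranked peaks lay far from any gene end on their strand. At chr1:169640206-169640270 on the minus strand, more than 101 kb past Rgs4, peaks overlapped on E11.5, on E15.5 and on E17.5. Their signal was 179 on E11.5, 107 on E15.5 and 50.9 on E17.5, with ranks of 1526, 8152 and 56. No RefSeq gene covered this position. Near Slc52a3, 71982 to 72248 bp past its end, peaks on E13.5, on E15.5 and on E17.5 lay in the RefSeq long noncoding gene AA387200, with signal between 21.3 and 52.9.

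Some intergenic peaks stood at a RefSeq gene start. Those with a midpoint in the window from 250 bases before to 50 after a RefSeq start made 8 pairs of peak and gene. The share of bases in such windows is not given here. Midpoints in GENCODE gene bodies are left out by definition, so the count is read neither as low nor as high. The best ranked was on E11.5 at chr12:46818847-46819059 on the minus strand, at Nova1, which encodes a neuronal splicing regulator and lies on the same strand. Its midpoint was 24 bp ahead of the GENCODE start and 186 bp ahead of the RefSeq start that defined the window, and it lay inside the RefSeq gene body of Nova1. It had signal 75.6 and rank 170. Its central 30 bases, from RefSeq's promoter sequence on GRCm38 and read 5′ to 3′ on the minus strand, are shown because no gene model of GENCODE holds them.
Nova1 peak, chr12:46818938-46818967: tgcactgcagctgctccgcgccctgccccc
Of these bases 76.7% were G or C. Other same-strand cases were Hmga2 on E11.5 with rank 5506, Fgf11 on E13.5 with rank 853 and Cox20 on E17.5 with rank 1625, and Gm40369, in the chromosome 6 gap described next, on E13.5 with rank 4311 and on E15.5 with rank 7445. Sms and Ap1s1 had a peak on the strand opposite to the gene.

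The largest cluster lay in a gap on chromosome 6. The gap between Gm25283 and Rny3 at chr6:47637220-47781623 spans 144404 bp and held 101 intergenic peaks, with 51 on E13.5, 25 on E15.5, 25 on E17.5 and none on E11.5. RefSeq places 10 genes in it, of which it types 6 as protein-coding, 3 as long noncoding and 1 as rRNA. Of the 101 peaks, 51 (50.5%) had their midpoint in one of these genes. The longest was Gm40363, with 55983 bp. None of the peaks overlapped Rn4.5s at chr6:47654921-47655094, a small RNA gene for which rRNA is only the type given in RefSeq. Of the 101 peaks 94 were on the plus strand, and all 7 minus-strand peaks were from E17.5. Their signal was modest, from 5.73 to 72.0. Several sets of peaks with identical width and signal recurred in steps. On E13.5, 10 peaks of 114 bases shared 1 signal value of 8.14 and followed each other at a median step of 4.34 kb, and 9 peaks of 50 bases with signal 16.2 also had a median step of 4.34 kb, though single steps in these sets reached 82.3 kb and 58.9 kb. The median step was 5.57 kb for 12 peaks of 91 bases and 8.69 kb for 4 peaks of 81 bases of that day. On E17.5, 8 plus-strand peaks of 59 bases with signal 54.1 stood 4.31 to 4.36 kb apart.

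**Figure D4:**
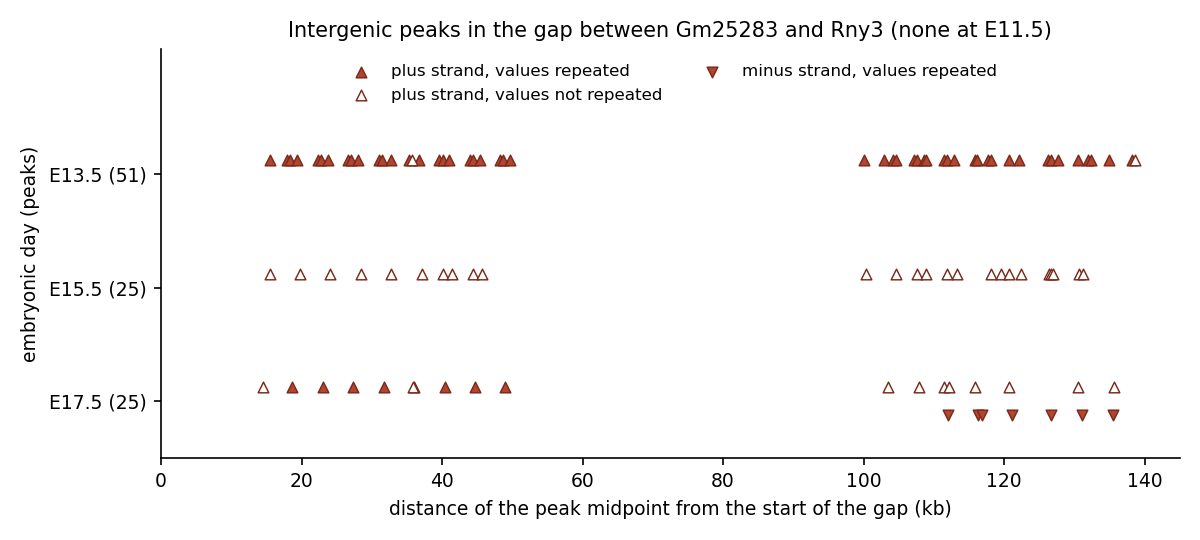
Position of the intergenic peaks in the gap between Gm25283 and Rny3 (x axis, kb from the start of the gap) by day, with triangles for the strand and filled symbols for peaks whose width, signal and p equal those of another peak of the day. Of the 51 peaks on E13.5, 49 are filled, and of the 25 on E15.5 none is.

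Peaks with identical values were common among intergenic peaks. Another peak of the same day had the same width, signal and p for 24 of 199 intergenic peaks on E11.5 (12.1%), 71 of 277 on E13.5 (25.6%), 38 of 423 on E15.5 (8.98%) and 27 of 268 on E17.5 (10.1%). Over all days this held for 13.7% of intergenic peaks, against 0.594% of peaks in 3′ untranslated regions, 13.2% in introns and 10.3% antisense to a gene. In the chromosome 6 gap 64 of the 101 peaks had repeated values. Whether such peaks rest on the same reads was not tested.

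The next 3 clusters each came from a single day. The gap between 2610005L07Rik and Gm21182 on chromosome 8 held 22 peaks, all on E13.5 and on the minus strand, with signal from 3.54 to 4.41. The gap between Gm1043 and Crmp1, the gene of a collapsin response mediator of growing axons, held 13 peaks with signal from 10.4 to 16.6. All were on E17.5, on the plus strand and within 10 kb behind the 3′ end of protein-coding Gm1043, the nearest at 906 bp. They were 13 of the 58 E17.5 peaks that close behind a protein-coding end. The gap between Gm25909 and Pisd-ps2 held 10, all on E17.5. Of 678 gaps with an intergenic peak, 473 held 1 peak.

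The median signal of intergenic peaks was 38.4 on E11.5, 16.2 on E13.5, 37.4 on E15.5 and 25.9961 on E17.5, against 39.8, 26.6, 28.1 and 28.5 in 3′ untranslated regions. It was thus the higher of the pair on E15.5 alone, with no test. Over all days the median was 28.0 for intergenic peaks, 29.1 in 3′ untranslated regions, 16.0 in introns and 9.62 antisense to a gene. Very high values made up a larger share of intergenic peaks. A signal above 1000 was carried by 55 intergenic peaks (4.71%), against 46 (0.463%) in 3′ untranslated regions, 0.388% in introns and 2.05% antisense. Intergenic peaks in the stronger 50% of their day by the authors' p made up 48.2% on E11.5, 45.8% on E13.5, 51.3% on E15.5 and 55.6% on E17.5. No day passed Fisher's exact test against the other peaks (two-sided, adjusted p = 0.666, 0.351, 0.666 and 0.246).

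Several of the peaks with the highest signal recurred at the same position. At chr15:86194771-86195260, 7651 to 8067 bp past the noncoding gene Gm15569, there were peaks on E13.5, on E15.5 and on E17.5 with signal between 12703 and 64156. At chr3:5860345-5860613, over 109 kb past Gm8797, signal was 52349 on E13.5, 35441 on E15.5 and 42694 on E17.5. The single highest value was 176269 on E15.5 at chr6:3201356-3201611, with rank 5804 of 10265, and no peak of another day overlapped it. None of these 3 positions had a peak on E11.5. High values on E11.5 lay elsewhere, with 20521 at chr11:109011885-109012101 and 15182 at chr1:136364892-136364955. Peaks of other days overlapped both.

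**Figure D5:**
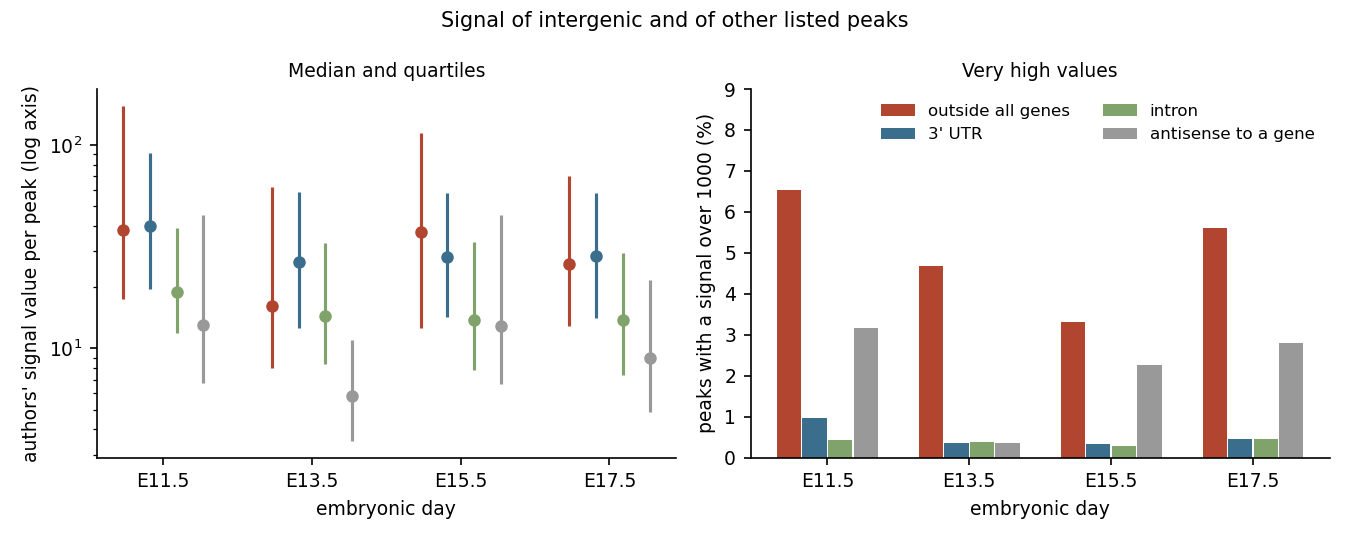
Left, median and quartiles of the authors' signal per peak (log axis) by day for intergenic peaks and for peaks in 3′ untranslated regions, in introns and antisense to a gene. Right, the share of peaks with a signal over 1000, where the intergenic bars stand at 6.53%, 4.69%, 3.31% and 5.60% from E11.5 to E17.5 and the 3′ untranslated bars at 0.972%, 0.369%, 0.338% and 0.469%.

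Recurrence on another day passed the test against the other peaks on E11.5 alone. A same-strand peak of another day overlapped 57 of 199 intergenic peaks on E11.5 (28.6%), 78 of 277 on E13.5 (28.2%), 97 of 423 on E15.5 (22.9%) and 65 of 268 on E17.5 (24.3%). Over all listed peaks this share was 20.9% on E11.5, 27.3% on E13.5, 22.5% on E15.5 and 26.9% on E17.5. In 3′ untranslated regions it was 34.1%, 39.6%, 27.1% and 35.6% in the same order, above the intergenic share on each day. Taken over all days it was 25.4% for intergenic peaks, 32.6% in 3′ untranslated regions, 12.9% in introns and 11.2% antisense to a gene. The other peaks of a day mix these classes, and recurrence against a single class was not tested. Against the other peaks of the day the odds ratio was 1.54 on E11.5 (two-sided Fisher's exact test, adjusted p = 0.0311). It was 1.05 on E13.5, 1.02 on E15.5 and 0.863 on E17.5, and none of these passed the exact test (adjusted p = 0.859, 0.859 and 0.651). The E11.5 odds ratio was 3.05 with 50% of both peaks shared and 1.81 with midpoints within 1 kb. With peaks of at most 5000 bases it was 1.88. Each passed the exact test (adjusted p = 1.2e-07, 0.00028 and 0.00072). Without repeated values the E11.5 odds ratio was 1.48 and no longer passed (exact test, adjusted p = 0.115). The result turned with the overlap required: with 50% of both peaks shared, the odds ratio was 1.56 on E15.5 and 1.55 on E17.5, and both passed the exact test (adjusted p = 0.00417 and 0.00966).

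Merging overlapping intergenic peaks of all days gave 1007 positions, of which 883 were seen on 1 day, 96 on 2 days, 25 on 3 days and 3 on all 4 days. Of the 28 positions on 3 or 4 days, 17 lay within 10 kb behind a processed pseudogene, 1 within 10 kb behind a protein-coding gene (Rimbp3), and 6 had a signal over 1000 on at least 1 day. The 3 positions seen on all 4 days lay behind Gm7931, Gm9761 and Rab11b-ps2. Values repeated in another peak of the day were found there for Gm7931 on E11.5 and E17.5 and for Gm9761 on E11.5, E13.5 and E17.5. They were not found for Rab11b-ps2.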

How the data were processed

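STAU2 immunoprecipitates and inputs of mouse embryonic cortex, 24 libraries in 8 groups, were available as 8 peak lists, 1 per day and strand. The lists have no column names. The authors deposited a score, a signal and a p-value and q-value per peak, and the largest q-value was below 0.01. Per the submitters' processing notes the build was mm10, and the tools were bedtools 2.17.0, Cufflinks 2.2.1, TopHat and TopHat2 2.0.9, with no role given. How peaks were called is not given in the sources used here, nor how multiply aligned reads were handled, which bears on peaks in copies of other sequences.

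Peak midpoints were compared with GENCODE vM21 gene bodies on GRCm38, the assembly of mm10, and with RefSeq genes of the same build (Python 3.11.15, pandas 2.3.3, SciPy 1.17.1). A midpoint counted as inside a RefSeq gene whichever strand the gene was on. Distances ran from the midpoint back to the nearest same-strand 3′ gene end, and the mirrored value used the opposite strand label at the same position. Distinct gene ends were compared by exact binomial tests and peak classes by Fisher's exact tests, two-sided, with Benjamini-Hochberg adjustment over the 4 days and a limit of 0.05 on the adjusted p. The functions were tested on simulated data. Peaks are not replicates, so p-values describe these lists. Overlap between days needed 1 shared base on the same strand.

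Peaks named in the text are those with the 5 smallest p of a day, the 3 smallest within 10 kb behind a gene end, up to 10 genes with peaks on the most days, the 5 fullest gaps, the widest peak of the 5 widest, positions on 3 or 4 days and genes of the lists. Added after values were seen were protein-coding genes with the smallest p or the most days, signals over 10000, RefSeq extensions and promoter windows. Examples were taken from these sets, and 1 gene that they include is not reported here. The intergenic peaks and gene lists were chosen with earlier results of these data known. The genome sequence was not used here, so base composition, repeats and folding of the peaks were not analysed here.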

Additional observations from a re-analysis of the deposited data

How the results depend on the processing

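The share of listed peaks outside genes depended on the annotation. With only protein-coding and long noncoding genes as gene bodies it was 6.13% on E11.5, 7.02% on E13.5, 6.34% on E15.5 and 6.36% on E17.5. With peaks within 1 kb merged it was 4.60%, 5.48%, 5.12% and 4.70% in the same order of days. Among alternatives chosen after seeing the data, GENCODE and RefSeq together gave 1.27%, 2.10%, 1.77% and 1.85%. Without repeated values E13.5 had 3.85%, and without the 3 fullest gaps E13.5 had 3.52% and E17.5 had 3.65%. The share within 10 kb behind a same-strand gene end became, from E11.5 to E17.5, 44.2%, 30.3%, 43.5% and 38.8% with a limit of 1 kb, and 76.4%, 71.5%, 79.4% and 85.1% with 50 kb. Counting protein-coding upstream genes only gave 15.6%, 13.7%, 16.8% and 21.6%, and protein-coding and long noncoding gene bodies gave 15.0%, 14.1%, 17.1% and 20.1%. The 21.6% on E17.5 includes 13 peaks behind the single gene Gm1043. With 1 count per upstream gene E13.5 had 60% and E15.5 had 68.9%. The stronger 50% of E17.5 gave 58.4%. On E13.5 the share was 59.3% without the 3 fullest gaps and 56.3% without repeated values, both added after seeing the data.

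The share of gene ends reached on the own strand was above 50% under every alternative run. The test no longer passed with protein-coding genes only (58.0%, 67.9%, 55.7% and 55.1% from E11.5 to E17.5), with protein-coding and long noncoding gene bodies (60.9%, 58.7%, 53.9% and 53.3%) or with no pseudogenes upstream (58.1%, 65.2%, 56.0% and 56.6%). With protein-coding genes and a limit of 5 kb it missed on E11.5 (66.7%), E15.5 (62.4%) and E17.5 (60.4%), and with a limit of 1 kb on E17.5 only (71.4%). These last 3 settings were chosen after seeing the data, and the cause was not tested. The odds ratio of recurrence was less stable. With 50% of both peaks shared it was 1.56 on E15.5 and 1.55 on E17.5, both past the exact test, the second in the opposite direction to the 0.863 reported. With midpoints within 1 kb it was 1.36 on E13.5 and passed. On E11.5 it no longer passed in the stronger 50% (1.59) or, added later, without repeated values (1.48). It was larger on E11.5 and passed with 50% of both peaks shared (3.05) and with midpoints within 1 kb (1.81). The same held there for peaks of at most 5000 bases (1.88). The strength by p gave no call under any alternative run.

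No paired analysis was possible because each list joins all libraries of a day and replicates carry no values, so alternatives without a replicate were not run either. The depth of the libraries is unknown, and a position without a listed peak is not shown to lack STAU2-bound RNA.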

Other observations

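The intergenic peaks within 10 kb behind the processed pseudogene Gm7367 on chromosome 7 lay inside larger RefSeq genes. There were 4 such peaks, 200 to 590 bp past the end of Gm7367, on E11.5, on E15.5 and on E17.5. All were on the plus strand and lay in the RefSeq model of Gm7367 itself. Their positions also fell in the RefSeq bodies of Snhg14, the long noncoding RNA of the imprinted Snrpn region, and of Snrpn. Snrpn lies on the opposite strand in GENCODE, and RefSeq overlap was taken without regard to strand, so these peaks are not assigned to Snrpn or Snhg14 RNA. Their signal was 47.1 on E11.5, 47.6 on E15.5, and 29.8 and 35.1 on E17.5, and the best of them ranked 160 of 10265.

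Of the small RNA genes, Gm24187 had intergenic peaks 42 to 56 bp past its end on E11.5, on E13.5 and on E17.5, with signal of 1517, 463 and 328. Behind Mir6342, at chr1:29737390-29737567 and 315820 to 315908 bp past its end, peaks on E13.5, on E15.5 and on E17.5 had signal of 10.6, 20.5 and 22.5 and lay in no RefSeq gene.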
